A study of Mus musculus with 5 samples.

Results

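Hepatocyte 3 was 1 of 4 single liver cells whose DNA methylation was set against a reference pool of liver cells. Its members are the 10-kb bins of the genome that the authors listed as different from the pool, selected by width alone from the 2 deposited lists of this cell. There were 184 bins with less methylation than the pool, called loss here, and 79 with more, called gain, which made 263 of the 1476 bins of that width in all cells. The cells and the pool came from livers of C57BL/6 mice perfused with collagenase, and methylation was read by reduced representation bisulfite sequencing, in which a restriction digest picks out part of the genome and bisulfite converts unmethylated cytosines. Each hepatocyte was taken up manually in a capillary, and its DNA was cut with MseI, an enzyme that cuts at TTAA. As carrier, 2 ng of tRNA cDNA was added to cells 3 and 4 and 2 ng of salmon DNA to cells 1 and 2. Which animal a cell came from, its age, and the number of cells in the pool are not given in the sources used here. Each cell is 1 library with no replicate, so bins of a cell are not replicates, and the label of hepatocyte cannot be checked against marker genes because no expression was measured.

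In mammals methylation sits mainly on cytosines followed by guanine (CpG). It covers most of the genome, while CpG-dense stretches at the start of many genes, the CpG islands, are usually free of it. Dnmt1 copies methylation to the new strand after DNA replication, Dnmt3a and Dnmt3b add it at new sites, and Tet enzymes start its removal. Adult hepatocytes divide rarely, and methylation within transcribed gene bodies is common in them as in other tissues.

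The starts of 5 genes are shown because they span the kinds of sequence that the bins of this cell held, from CpG-poor to CpG-dense; they were chosen after their values were seen. Each window runs from 250 bases before to 50 bases after the start site, 5′ to 3′ on the gene's strand, from RefSeq (GRCm38.p6), with each CG in capitals. Wfdc15b (chr2:164221614-164221913, minus strand) and Abtb1 (chr6:88841886-88842185, minus strand) lay in loss bins. Tfdp1 (chr8:13338501-13338800, plus strand), Gsk3b (chr16:38088751-38089050, plus strand) and Samt4 (chrX:154481752-154482051, plus strand) lay in gain bins.
Wfdc15b: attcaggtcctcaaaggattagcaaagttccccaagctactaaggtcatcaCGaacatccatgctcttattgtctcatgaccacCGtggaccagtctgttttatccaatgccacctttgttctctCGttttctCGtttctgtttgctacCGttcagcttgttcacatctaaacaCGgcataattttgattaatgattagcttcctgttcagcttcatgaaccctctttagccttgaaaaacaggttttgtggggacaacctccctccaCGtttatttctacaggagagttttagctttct
Abtb1: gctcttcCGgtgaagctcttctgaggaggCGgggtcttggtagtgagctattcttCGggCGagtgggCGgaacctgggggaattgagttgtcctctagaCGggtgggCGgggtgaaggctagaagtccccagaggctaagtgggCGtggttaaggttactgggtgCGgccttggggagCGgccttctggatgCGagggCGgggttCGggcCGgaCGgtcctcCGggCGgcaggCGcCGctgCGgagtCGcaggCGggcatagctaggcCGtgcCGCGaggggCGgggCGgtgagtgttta
Tfdp1: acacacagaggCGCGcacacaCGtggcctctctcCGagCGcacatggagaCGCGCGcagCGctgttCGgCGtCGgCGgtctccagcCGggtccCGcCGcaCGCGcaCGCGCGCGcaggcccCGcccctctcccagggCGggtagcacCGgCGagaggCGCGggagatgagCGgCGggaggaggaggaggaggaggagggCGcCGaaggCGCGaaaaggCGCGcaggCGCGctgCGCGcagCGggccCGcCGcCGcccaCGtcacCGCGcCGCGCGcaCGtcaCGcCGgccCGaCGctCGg
Gsk3b: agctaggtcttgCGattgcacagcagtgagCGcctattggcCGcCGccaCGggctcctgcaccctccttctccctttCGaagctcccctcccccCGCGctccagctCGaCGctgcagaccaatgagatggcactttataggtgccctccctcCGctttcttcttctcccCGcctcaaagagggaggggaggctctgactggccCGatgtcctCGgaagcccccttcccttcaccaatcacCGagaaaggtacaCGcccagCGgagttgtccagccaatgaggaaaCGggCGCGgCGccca
Samt4: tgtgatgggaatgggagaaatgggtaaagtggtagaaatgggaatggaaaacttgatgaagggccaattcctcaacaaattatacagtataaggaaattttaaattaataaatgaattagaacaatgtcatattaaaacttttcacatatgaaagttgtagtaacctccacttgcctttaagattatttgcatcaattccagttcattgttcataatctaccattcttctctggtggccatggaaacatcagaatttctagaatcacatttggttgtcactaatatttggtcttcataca

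The window of Tfdp1 held 56 CG and that of Abtb1 27, against 21 for Gsk3b, 7 for Wfdc15b and 0 for Samt4. Over 20036 protein-coding windows of the same length the median was 13. Gain bins thus covered both a very CpG-dense start and a start without any CG. The motif TTAA, which reads the same on both strands, was found 4 times in the window of Samt4, 1 time in those of Wfdc15b and Abtb1 and 0 times in those of Tfdp1 and Gsk3b, and 48.1% of all protein-coding windows held it. A bin is far longer than such a window, and its call says nothing of which cytosines within it were read. Windows were available for 103 of the 136 protein-coding genes at loss bins (75.7%) and 44 of the 57 at gain bins (77.2%). Of all protein-coding genes 79.7% had one, so the lists were covered nearly as well as all genes. Each share was under 80%, so a check of CpG content over the lists is void.

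Of the bins of cell 3, 30% were gain (79 of 263, exact Clopper-Pearson 95% interval 24.6 to 36.0%). The cell was chosen for this share, which is therefore a description. In cell 1 the share was 4.23% of 614 bins. It was 16.3% of 509 for cell 2, and 14.4% of 90 for cell 4. Cell 3 thus held 39.3% of all 201 gain bins of the series and 14.4% of all 1275 loss bins. Intervals in this account cover counting error only, and the bins that could be read in each cell, and their depth, are unknown.

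The score that the authors gave each bin, on a scale of 0 to 1000 and without a stated definition, separated the lists. In cell 3 loss bins ran from 91 to 688 with a median of 455, and gain bins from 792 to 1000 with a median of 833. No bin of this cell lay between 688 and 792. Whether this gap follows from how bins were called, which is not stated, was not tested, so it is a description only. The median of loss bins was 438 in cell 1, 436.5 in cell 2 and 333 in cell 4, and that of gain bins 864.5, 833 and 833. Cell 3 therefore matched cells 2 and 4 in its median gain score, and its lowest gain score, 792, lay above theirs (773 in cell 2, 786 in cell 4), while in cell 1 no gain bin scored under 846. The highest gain score of the other cells was 933, in cell 2.

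**Figure D1:**
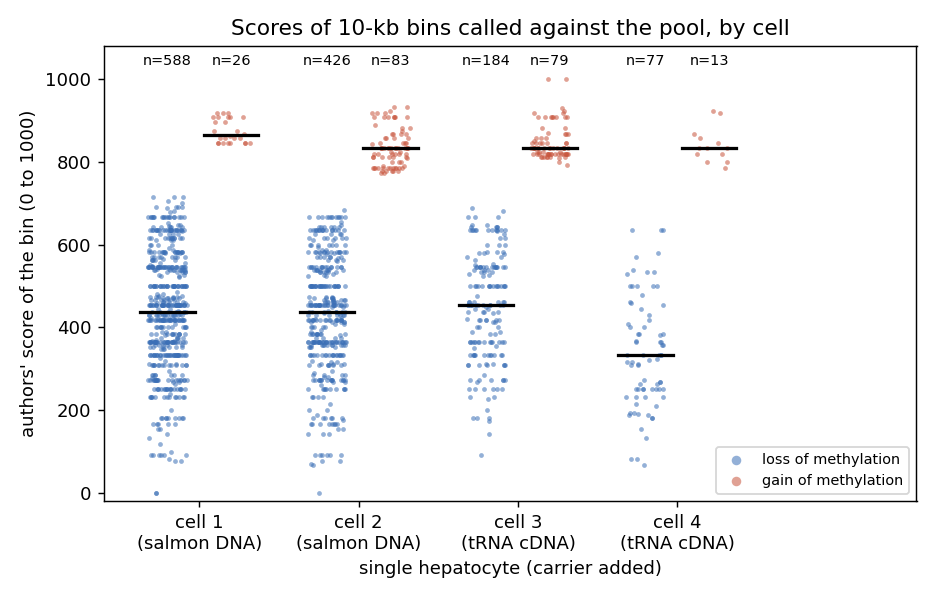
Authors' score (vertical axis, 0 to 1000) of every 10-kb bin in each single hepatocyte (horizontal axis, with the carrier), loss bins in blue and gain bins in red; black lines are medians and n is the number of bins. Cell 3 has 184 loss bins with a median of 455 and 79 gain bins with a median of 833, and 2 of its gain bins reach 1000.

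Bins of both directions were spread over all 19 chromosomes with data. Chromosome 2 had the most loss bins (18, with 5 gain bins) and chromosome 7 the most gain bins (9, with 15 loss bins). Per 100 Mb between the outermost annotated genes, loss ran from 2.34 bins on X to 13.1 on chromosome 11, and gain from 0.586 on X to 6.74 on chromosome 15. X was thus lowest in both directions, with 4 loss bins and 1 gain bin, at Samt4, and all 4 loss bins of X were also listed in another cell. Chromosome 12 had 10 loss bins, of which 9 were also listed in another cell, whereas on chromosome 5 it was 2 of 9 and on chromosome 14 it was 1 of 6. The share of gain ranged from 16.7% of 12 bins on chromosome 12 to 41.7% of 12 on chromosome 17. Counts per chromosome were small and were not tested.

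**Figure D2:**
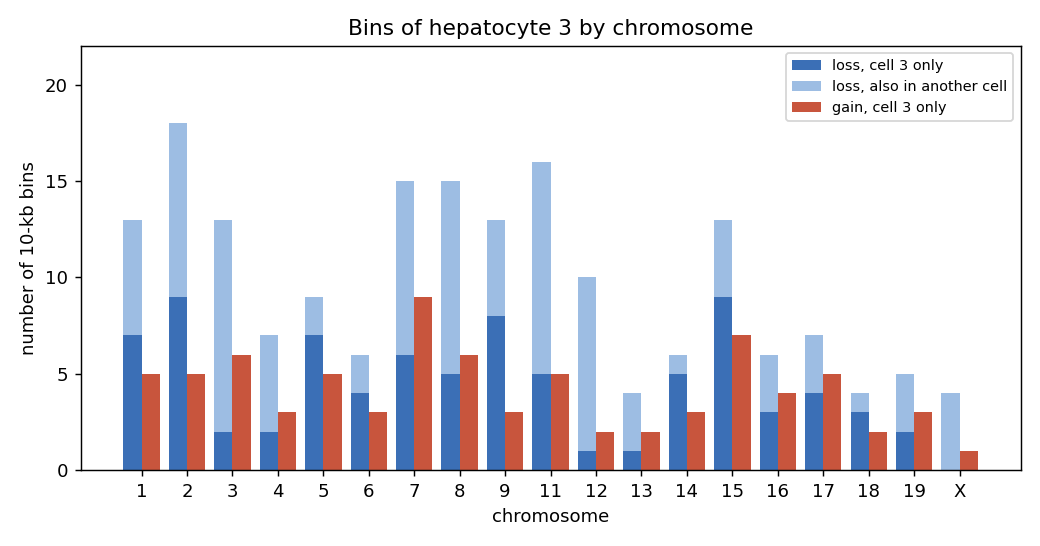
Number of 10-kb bins of cell 3 (vertical axis) on each chromosome (horizontal axis); loss bins found in cell 3 only (dark blue) are stacked under those also listed in another cell (light blue), and gain bins (red) stand beside them. Gain bins reach 9 on chromosome 7 and fall to 1 on X.

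Of the 263 bins, 162 (61.6%) had a start that none of the other cells listed. These were 83 of the 184 loss bins (45.1%, interval 37.8 to 52.6%) and all 79 gain bins. Most gain bins of cells 1, 2 and 4 were also listed in no other cell (88.5%, 95.2% and 92.3%). For their loss bins this share was 73.1%, 62.9% and 18.2%. The gain lists of the other cells held 26, 83 and 13 bins, and no overlap of any length with a gain bin of cell 3 was found. A count of 0 in 79 allows a shared share of up to 3.80% (3 counts of 79). Of the loss bins, 43 were listed in exactly 1 other cell, 43 in exactly 2 and 15 in all 3. With cell 1 the cell shared 74 loss bins, 40.2% of its own list and 12.6% of the list of cell 1. With cell 2 it shared 69 (37.5% and 16.2%), and with cell 4, prepared with the same carrier, 31 (16.8% and 40.3%). The lists differ in length from 77 to 588 loss bins, so that the shares cannot be compared as rates of sharing, and the pool was common to every comparison.

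**Figure D3:**
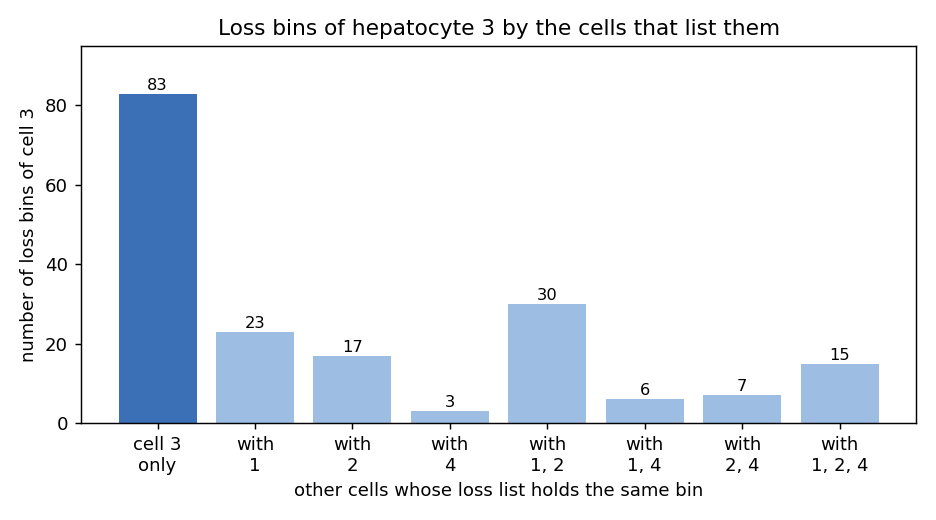
Number of loss bins of cell 3 (vertical axis) by the other cells whose loss list holds the bin with the same start (horizontal axis). Of the 184 bins, 83 were in cell 3 only, 30 were shared with cells 1 and 2, and 15 with all other cells.

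Matching by the same start left out bins that were shifted by a few kb. Of the 83 loss bins found in cell 3 only, 8 overlapped a loss bin of another cell. The bin with the lowest score of the cell was among them: at Wfdc15b, which encodes a small secreted protein of the protease inhibitor type, chr2:164214000-164224000 scored 91 in cell 3, and a bin shifted by 1000 bp scored 364 in cell 1 and 455 in cell 2. The bin over Pop5, an RNase P and MRP subunit gene, was matched in the same way (score 545 in cell 3, against 417 in cell 1 and 583 in cell 2). So was the bin over Fam83h and Iqank1 (688 in cell 3, against 471 and 357), which had the highest loss score of cell 3. At Hpd, an enzyme of tyrosine breakdown made in hepatocytes, the bin of cell 3 scored 583 and that of cell 1, shifted by 2000 bp, 692.

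In bins that cell 3 shared with another cell, the scores of the cells showed no common order. Against cell 1, cell 3 scored higher in 36 bins, lower in 36 and equal in 2, with Pearson's r of -0.020 over 74 bins. Against cell 2 it was higher in 31 and lower in 37 (r of 0.017 over 69 bins). Against cell 4 it was higher in 24 of 31 (r of -0.045), with a median of 476 in cell 3 and 308 in cell 4. These correlations are across bins called against 1 pool and under a score limit in every cell, so they are a description only. As an example, the bin at Tpm3, a tropomyosin gene, and Mir190b scored 200 in cell 3 but 617 and 625 in cells 1 and 2, and the bin in Fhl2, a LIM domain protein gene, scored 577 in cells 3 and 2 but 143 in cell 1.

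**Figure D4:**
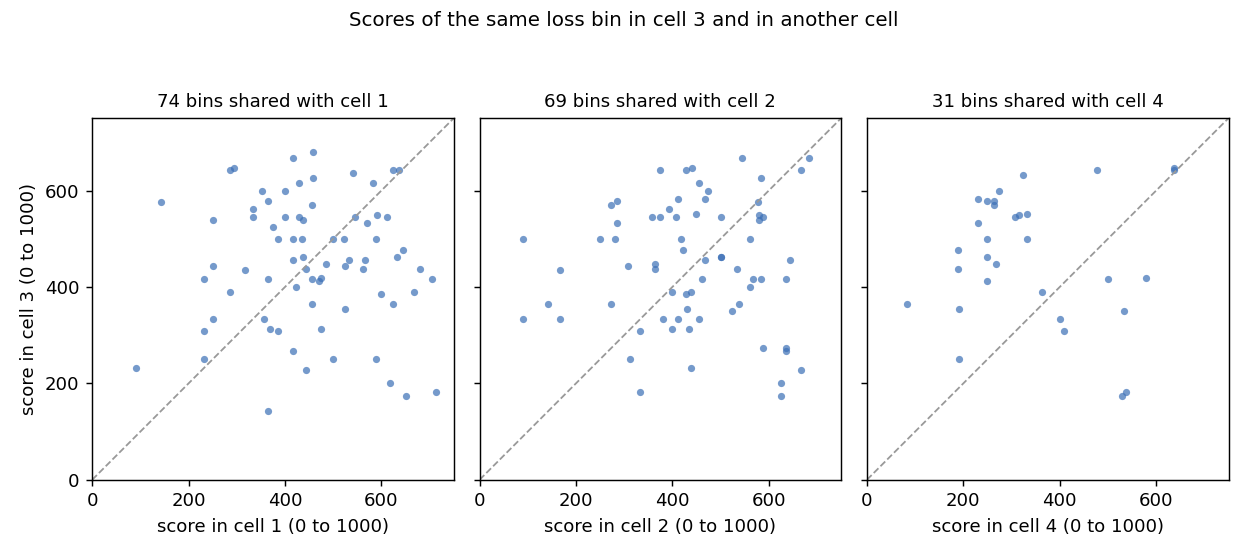
Score of each loss bin in cell 3 (vertical axis) against its score in cell 1, 2 or 4 (horizontal axes), for the 74, 69 and 31 bins listed in both; the dashed line marks equal scores. The points form clouds without a slope, and in the panel of cell 4 most lie above the line, 24 of 31.

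The midpoint decided the place of a bin: at a gene end if no more than 1000 bp from the start or the end of a gene, otherwise inside a gene or outside all genes. The gain bins numbered 11 at gene ends (13.9%), 43 inside genes (54.4%) and 25 outside (31.6%). For loss bins it was 14 (7.61%), 97 (52.7%) and 73 (39.7%). The genic share was 68.4% for gain and 60.3% for loss (odds ratio 1.42, 95% interval 0.787 to 2.60, two-sided Fisher's exact test, adjusted p = 0.399 over 3 tests). The gene-end share gave an odds ratio of 1.96 (interval 0.764 to 4.91, adjusted p = 0.344 by Fisher's exact test). Neither difference passed. With stricter score limits (loss at most 400, gain at least 830) the odds ratio of the genic share fell below 1 (0.889) and that of the gene-end share rose to 3.79 (7 of 47 gain bins, adjusted p = 0.265 by Fisher's exact test). Loss bins found in cell 3 only were genic in 61.4% of 83 and those also listed elsewhere in 59.4% of 101 (odds ratio 1.09, interval 0.577 to 2.06, adjusted p = 0.880 by Fisher's exact test). The tests compare lists of 1 library and count bins as independent. The other cells had genic shares of 65.6%, 66.2% and 68.8% for loss, so that cell 3 had the lowest, and 69.2%, 65.1% and 46.2% for gain.

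**Figure D5:**
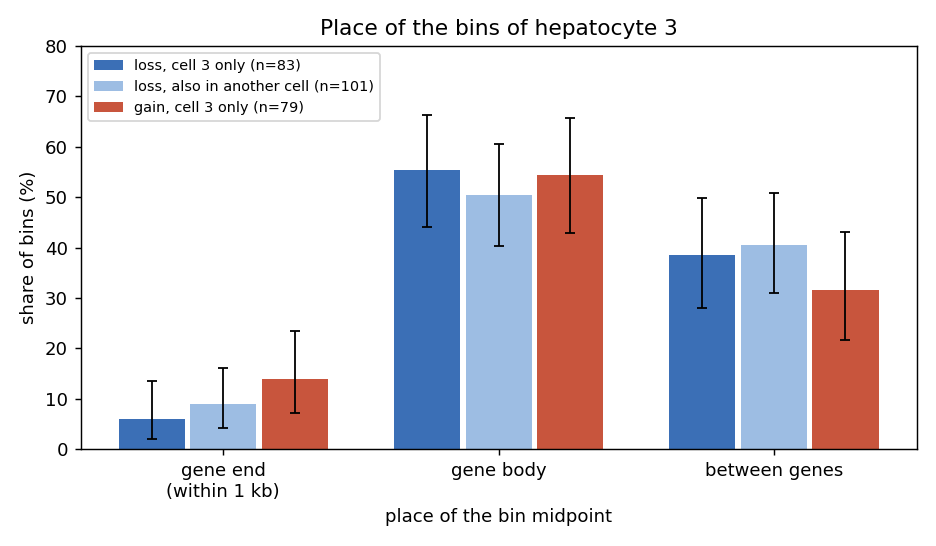
Share of bins of cell 3 (vertical axis, percent) by the place of the bin midpoint (horizontal axis) for loss bins in cell 3 only, loss bins also in another cell, and gain bins; error bars are exact 95% intervals for counting error. The intervals of the 3 sets overlap at every place.

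The genes at the bins were longer than most. Within 2000 bp of a loss bin lay 136 protein-coding genes (0.659% of 20630), and within 2000 bp of a gain bin 57 (0.276%). Their median length was 43.5 kb and 57.0 kb, against 17.3 kb for all protein-coding genes. Genes of 100 kb or longer made up 31.6% and 29.8%, against 11.1% of all. A long gene has more room for a bin, so the counts of gene groups below are given beside the shares of all genes and without a test. In all, 76 loss bins (41.3%) and 30 gain bins (38.0%) lay wholly inside a protein-coding gene.

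The highest gain scores of the cell, 1000, were those of bins in Cbl and Tfdp2. Cbl, a ubiquitin ligase that ends signalling from receptor tyrosine kinases (chr9:44142976-44234259), had a gain bin with a score of 1000 at chr9:44164000-44174000, inside the gene. Tfdp2, a partner of the E2F transcription factors of the cell cycle, had the other bin with a score of 1000 (chr9:96259000-96269000). Among the other gain bins with a gene within 2000 bp, Cntnap5b, a neurexin-like cell adhesion gene, had the highest score, 923, followed by Zim1, an imprinted zinc finger gene, and Samt4 on X with 917. Acsm2, a medium-chain acyl-CoA synthetase gene, had a bin with 909, as did Tbc1d31, Entpd7, a nucleotide-hydrolysing enzyme gene, the pseudogene Gm6475 and, beside its bin, the non-coding Gm32806. None of these bins was listed in another cell, and 14 gain bins in all scored 900 or more.

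Several gain bins had the start of a protein-coding gene near their middle. The related E2F partner gene Tfdp1 had its start in a gain bin with a score of 833 (chr8:13334000-13344000). Gsk3b, the kinase that marks beta-catenin for breakdown, had its start in one with 833 (chr16:38085000-38095000), and Dvl3, a Dishevelled gene that carries the Wnt signal towards that kinase, in one with 812 (chr16:20512000-20522000). Another gene of that pathway, the Dishevelled antagonist Dact3, had its start at the edge of a gain bin (score 818). Starts also lay in gain bins at Cenpb, which binds centromere DNA (810), Unk, an RNA-binding zinc finger gene, with its neighbour H3f3b, a gene of histone H3.3 (846), and Zc3h7a (833). The bins at Tle7 (850), Cep192, a centrosome gene (846), and Coro1b, an actin regulator gene (812), also had their midpoint at a gene end. Dact3 and H3f3b fall outside the rule for named genes and were chosen after their values were seen.

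Among loss bins found in cell 3 only, the lowest scores after Wfdc15b lay in Aifm3 beside Lztr1, and in Cfap44, a gene of cilia and flagella (182 each). Rnf17, a germ cell gene, scored 231, and Osbpl6, an oxysterol-binding protein gene, 273. The bin over Icam5, a cell adhesion gene of neurons, scored 286. The bins beside Gm39914 and at the pseudogenes Gm21142 and Gm21152 scored 250. Only 2 bins of this class had their midpoint at the end of a protein-coding gene: that over the start of Pop5, and that over the starts of Abtb1 and of the non-coding Gm15612 and the end of Podxl2 (308).

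Loss bins listed in 3 or all 4 cells numbered 58. The 15 in all cells included those in Kcnn3, a calcium-activated potassium channel gene (389 in cell 3), Fto (462) and Rgs6 (476). Notch2, a receptor of the Notch pathway, scored 350 in cell 3, 524 in cell 2 and 533 in cell 4. Smurf2, a ubiquitin ligase that limits TGF-beta signalling, scored 250, against 231 in cell 1 and 190 in cell 4, and was thus low in each. Prkca, a protein kinase C gene, scored 417 (231 and 583 in cells 1 and 2). At the start of Birc2, an inhibitor of apoptosis, scores were 643, 636 and 375 in cells 3, 1 and 2. Bins in enzymes of metabolism were those at Acsf2, an acyl-CoA synthetase family gene (545, 545 and 500 in cells 3, 1 and 2), Hoga1, which breaks down hydroxyproline (615, 429 and 455), and Car12, a carbonic anhydrase (438, 444 and 533). The scores at Acsf2 lay close together, while those in Odf1, a sperm tail gene, were spread: the bin scored 227 in cell 3, 444 in cell 1 and 667 in cell 2.

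A few genes held more than 1 bin of cell 3, and 2 held both directions. Tenm3, a teneurin adhesion gene of 1297160 bp on chromosome 8, had 2 loss bins (545, in cell 3 only, and 417, also in cells 1 and 2) and, elsewhere in the gene, a gain bin (870). In Ergic1, which encodes a protein of transport between endoplasmic reticulum and Golgi, a loss bin (chr17:26571000-26581000, score 364, also in cell 4 with 83) and a gain bin (chr17:26640000-26650000, score 812) lay 59000 bp apart. Slc35f3 had 2 loss bins with nearly equal scores (633 and 636). The pairs of loss bins at Apol10b and Abtb1 overlapped each other by 9000 bp and 1000 bp and are thus not separate events.

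Of 13 neighbouring pairs less than 100 kb apart, 9 were both loss, the overlapping pairs at Apol10b and Abtb1 included, 0 both gain and 4 mixed, in a cell with 70% loss bins. The mixed pairs were the one in Ergic1 and 3 others. The gain bin in Cbl lay 36000 bp from a loss bin at Gm10687 (333). A gain bin in Syt11, a synaptotagmin gene (846), lay 31000 bp from the loss bin at Khdc4 and Rit1 (500), which all 4 cells listed. A gain bin reaching into Sipa1l3 (818) lay 69000 bp from a loss bin with no gene near it (600).

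The gene groups were 8 lists and 14 families named by their symbols, compiled with earlier results of these data known. Of the 22 groups, 7 had loss bins only, 4 gain bins only, 5 both and 6 neither. In the groups of this and the next paragraph, a count of 0 in a direction cannot be told from the share of all genes. Median gene length was 42.6 kb in the channel, 62.4 kb in the chromatin and 39.7 kb in the small GTPase family, against 17.3 kb for all. It was 25.2 kb for cell cycle, 67.8 kb for insulin and 46.4 kb for Wnt list genes. Whether length bears on these shares was not tested. Solute carrier (0.546%) and zinc finger genes (0.637%) had loss near the share of all genes. Of ion channels, 4 of 132 voltage-gated and calcium-activated channel genes (3.03%, against 0.659% of all genes) had a loss bin and 0 a gain bin (0.276% of all genes had one). These were Cacnb1 (455) and Cacnb2 (438), which encode beta subunits of calcium channels, with Kcnn3 and, by its symbol only, Kcnip1. Of 109 genes matched by symbol as chromatin genes, 3 had loss (2.75%) and 0 gain (0.276% of all genes had one). Ncoa5, a nuclear receptor coactivator, was counted by its symbol only (143, against 364 in cell 1). The others with loss were the histone methyltransferase gene Nsd1 (545) and, beside its bin, Setd1b (583). Small GTPases with their exchange factors and activators had loss at 5 of 233 (2.15%), such as the GTPase Rab17 (455) and the activator Rap1gap2 (412), and gain at 2 (0.858%), Sipa1l3 and Tbc1d31.

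The cell cycle, DNA damage and ageing genes had gain at 3 of 38 (7.89%, against 0.276% of all genes). Loss was at 0 of them (0.659% of all genes had one). The 3 with gain were Tfdp1 (833), Tfdp2 (1000) and Atm, the DNA damage kinase (818). Tfdp2 and Atm were known to hold gain bins when the list was compiled, so that its count is no independent evidence of a direction. Insulin, growth factor and MAP kinase genes had gain at 2 of 51 (3.92%, against 0.276% of all genes) and loss at 0 (0.659% of all genes had one). The 2 with gain were Cbl and Grb2, the adaptor that Cbl and receptor kinases bind (824). In the list of Wnt, Notch, Hedgehog and TGF-beta genes, Notch2 and Tcf7l1 (680 in cell 3, 459 in cell 1) had loss. The list thus had loss at 2 of 73 (2.74%, against 0.659% of all genes) and gain at 0 (0.276% of all genes had one). It did not hold Gsk3b, Dvl3, Dact3 or Hhip, a gene of a Hedgehog-binding protein with a gain bin inside it (867). Nor did it hold Smurf2, which had a loss bin (250, also in cells 1 and 4). The counts of the list thus do not stand for these pathways in either direction. Hhip was named after its value was seen. Lin54, a subunit of the DREAM complex that represses cell cycle genes, had a gain bin (818) and was named after its value was seen.

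Of 62 hepatocyte secreted and metabolic genes 1, Hpd, had a loss bin (1.61%, against 0.659% of all genes) and 0 a gain bin. That list did not hold Hoga1 (615) or Apoc2, which lay beside a loss bin (643, also in cell 1). Its count thus does not stand for every gene of this kind. Apoc2 was named after its value was seen. Among 32 liver transcription factors and nuclear receptors 1, Srebf2, the activator of cholesterol synthesis, had a gain bin inside the gene (833; 3.12%, against 0.276% of all genes) and 0 had loss. Neither the 16 genes of the DNA methylation machinery nor the 34 markers of other liver cell types had a bin of either direction. At the shares of all genes, under 1 gene would be touched in each of these lists, so that neither these single genes nor the counts of 0 can be told from the shares of all genes. Of 54 imprinted genes, Trappc9 had loss in cell 3 only (308) and Zim1 gain (917), which made 1.85% in each direction. No bin lay at any of 1387 olfactory and vomeronasal receptor genes, against 0.659% of all genes for loss and 0.276% for gain. Their median length was 0.951 kb, against 17.3 kb for all protein-coding genes. Whether length bears on the count of 0 was not tested.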

How the data were processed

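Bins of single hepatocyte 3 were analysed with those of hepatocytes 1, 2 and 4 as a comparison. The authors deposited, for each cell, a list of bins less methylated and a list of bins more methylated than the reference pool; the pool's own values were not used here. The deposited score of a bin runs from 0 to 1000, and how it was computed, how bins were called and with which limits are not given in the sources used here. Per the submitters' processing notes, CASAVA 1.4, Trim Galore 0.2.2, cutadapt 1.0, Bowtie2 2.0.0, Bismark 0.7.6 and the build mm10 were used. Read depth and the set of bins read in each cell are unknown.

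Entries of 10000 bp were kept, and 4 entries of 100 bp were left out. A bin counted as shared when another cell listed the same chromosome, start and direction. Genes (47283 on the 19 chromosomes with bins) came from RefSeq GRCm38.p6 and were assigned within 2000 bp; chromosome 10 was not analysed here. Shares have exact Clopper-Pearson 95% intervals. There were 3 Fisher's exact tests (two-sided; p adjusted by Benjamini-Hochberg, threshold 0.05), and each p compares lists of bins of 1 library. The functions were tested on simulated data. Python 3.11.15, pandas 2.3.3 and SciPy 1.17.1 were used. Alternatives changed the overlap that counts as shared, the gene assignment, the score limits (loss at most 400, gain at least 830) and left out each other cell.

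The bins described and the gene lists were chosen with earlier results of these data known. Named genes are those at the 10 lowest loss bins found in cell 3 only and the 10 highest gain bins (with a gene within 2000 bp, ties in genome order), at loss bins listed in 3 or more cells, at bins with the midpoint at the end of a protein-coding gene, with 2 or more bins, or in the 8 lists and 14 families of genes. A few genes that meet this rule are not reported here.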

Additional observations from a re-analysis of the deposited data

Results flagged for a closer look

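Over 15 measures of the 4 cells, 2 had a cell far from the others by the gap between values, and neither was hepatocyte 3. By chance about 1 in 20 groups would stand apart, a rate for independent values without ties. These measures depend on each other and the gain medians of 3 cells were equal, so the rate is a rough guide. The highest gain score of cell 3, 1000, was not flagged. Its gap was 0.807 of the range, against 0.848 for the flagged loss median of cell 4. The median score of loss bins was 333 in cell 4, below the 436.5 to 455 of the other cells. This bears on the comparison of shared bins, where cell 3 scored higher than cell 4 in 24 of 31. The median score of gain bins was 864.5 in cell 1, against 833 in each of cells 2, 3 and 4.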

How the results depend on the processing

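The share of gain in cell 3 stayed between 30% and 30.3% when the short entries were included or touching bins merged, and was 40.9% (47 of 115) with the stricter score limits. Those limits kept 68 of 184 loss bins and 47 of 79 gain bins, so the 40.9% depends on where they were set. The share of loss bins missing from the other cells was 45.1% and became 32.1% when a bin within 100000 bp counted as shared; leaving out 1 other cell gave 46.7 to 57.6%, the highest without cell 1 and the lowest without cell 4. Merging or counting any overlap as shared gave 40.7 and 40.8%. All gain bins stayed unshared when any overlap counted or touching bins were merged, and 97.5% did within 100000 bp. Leaving out a cell or using stricter scores could only remove matches, so that outcome was fixed in advance for gain bins. No Fisher's exact test passed its threshold in any setting, and the direction turned in some. The odds ratio of the genic share of gain against loss was 0.889 with stricter scores, and that of the gene-end share 0.755 with any overlap of the bin. For loss bins in cell 3 only against shared ones it was 0.726 with any overlap with a gene and 0.890 with any overlap counting as shared. The cause was not tested. With stricter scores the protein-coding genes at loss bins fell to 51 from 136 and at gain bins to 30 from 57, since fewer bins entered. No paired analysis was possible because the pool is 1 sample, against which every cell was compared. Unknown depth limits every count: a bin missing from a cell may not have been read there.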

Other observations

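Non-coding genes lay at bins of both directions in cell 3. Of 186 genes of all kinds within 2000 bp of its loss bins, 31 were long non-coding RNA genes, 9 pseudogenes and 4 microRNA genes. Of 82 within 2000 bp of its gain bins, 20 were long non-coding RNA genes, 3 pseudogenes and 0 microRNA genes. The share of all annotated genes of each kind that lay at a bin was not computed. These counts therefore show no difference between kinds or directions. The microRNA genes included Mir190b and Mir7048, inside bins that other cells also listed, and Mir1900, beside the bin at Icam5 that was found in cell 3 only. Tbx3os1, an antisense RNA gene of the T-box gene Tbx3, had within it a loss bin (score 333) found in cell 3 only. A loss bin in the immunoglobulin heavy chain locus Igh, over the variable segment Ighv11-1, scored 500 and was also listed in cell 2.

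At 0 of 263 starts did another cell list the opposite direction, but shifted bins of opposite direction did overlap in 2 places. At Dvl3 the gain bin of cell 3 (chr16:20512000-20522000, score 812) overlapped by 3000 bp a loss bin of cell 1 (score 600). At Khdc4 and Rit1 the loss bin chr3:88708000-88718000, listed in all cells with 500 in cell 3 and 91 in cell 2, overlapped by 6000 bp a gain bin of cell 2 itself (score 786). Cell 2 thus listed overlapping sequence as both less and more methylated than the pool, and the gain bin of cell 3 in Syt11 lay 27000 bp from that gain bin. These overlaps and the genes named here were chosen after their values were seen, and none was tested.

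The 4 entries of 100 bp in the lists of cell 3 were 2 of loss, on chromosome 7 (score 417) and chromosome 9 (583), and 2 of gain, on chromosome 4 (909) and chromosome 15 (846).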
